A study of Mus musculus with 15 samples.

Results

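The genes described here are the translation initiation factor genes of the mouse, chosen by name: all symbols that begin with Eif and a digit from 1 to 6, apart from pseudogenes named as such. The rule found 56 genes, of 51627 listed for embryonic stem cells (ESCs) and of 53564 listed for embryos, and used no measured value. They were read in 15 libraries titled RNA-Seq of a study of Zscan4, a family of DNA-binding SCAN and zinc finger proteins made by the 2-cell embryo and by a few cells of an ESC culture. The ESCs were of the J1 line, grown without feeder cells and all at the passage labelled PN+8: 2 libraries of wild type cells and 2 labelled Zscan4 OE, for overexpression. The other 11 libraries were of 2-cell embryos, 5 of wild type and 6 labelled Zscan4 RNAi. The labels are at odds with themselves: beside RNA-Seq titles and an expression series type they give genomic DNA as the molecule and a DNA library kit, and the embryos carry the growth text of the ESCs. The values are treated here as RNA levels, which rests on the titles and the series type. The sources used here do not give the construct that drives Zscan4, the RNAi reagent, or the strain and number of embryos behind a library. Nothing in the labels says that replicates were separate cultures or separate embryo pools, and the p-values below therefore speak of the spread among these libraries, which may be technical.

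Initiation brings a ribosome to the start codon of an mRNA. The eIF2 complex carries the initiator tRNA, and the exchange factor eIF2B recharges eIF2 with GTP unless a stress kinase has phosphorylated its alpha subunit. The large scaffold eIF3 sits on the small ribosomal subunit, while eIF1 and eIF1A set the accuracy of start codon choice and eIF5 and eIF5B act when the subunits join. The mRNA arrives through eIF4F: the cap-binding protein eIF4E, the helicase eIF4A and the scaffold eIF4G. Small binding proteins, the 4E-BPs, hold eIF4E back when mTOR is not active. In the 2-cell embryo of the mouse the stored mRNA of the oocyte is being degraded while the embryo's own genes switch on, so levels there mix both sources.

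Gene-assigned reads numbered 21820093 to 26555027 for each ESC library and 695524 to 1432566 for each library of embryos. Levels are given as normalised reads, the reads of a gene divided by the authors' size factor of the library, and 1 embryo read was worth 0.687 to 1.39 of them. The summed Zscan4 genes averaged 182 ± 41.8 (SD, n = 2) normalised reads in control ESCs and 19727 ± 393 (SD, n = 2) with overexpression, a mean log2 difference of 6.77. They averaged 734 ± 272 (SD, n = 5) in control embryos and 230 ± 142 (SD, n = 6) with RNAi, a mean log2 difference of −2.11 (two-sided exact permutation test, p = 0.013). The embryo groups overlapped, with sums of 345 to 1064 in controls and 13.9 to 383 with RNAi. RNAi libraries 3 and 5, at 379 and 383, lay above control 5. Between 2 and 2 ESC libraries the same exact permutation test gave p = 0.333, the smallest that 6 assignments allow. The pluripotency markers of the ESC list summed to 64985 to 65184 normalised reads in controls and 76020 to 89246 with overexpression. In the embryos the 6 oocyte markers summed to 1076 to 2552 in controls and to 2896 to 7820 with RNAi, and Gdf9, Bmp15 and Ooep of them rose; the 6 cumulus or granulosa markers summed to 1.39 to 3.91 and 0 to 8.24, with Amh, Inha and Has2 listed at 0 in all embryo libraries. The 7 markers of the 2-cell stage, which include Zscan4 genes, summed to 639 to 1348 in control embryos and to 172 to 655 with RNAi. Zscan4d, Zscan4f and Tdpoz4 of them fell, and the part of embryo stage in the results was not tested. Sums of fibroblast markers (2.34 to 24.3 in controls, 5.74 to 43.0 with RNAi) and of blood markers (26.8 to 68.4 and 6.52 to 139) overlapped between the groups there. The blood sums reached the level of low members such as Eif3l, with a control mean of 44.2, and the part of such cells was not tested. Embryo control 5 stood apart from the other controls, with the highest oocyte sum of its group and the lowest Zscan4 sum, 345. The ESC overexpression libraries also differed from each other far more than the controls did, with a chi-square per degree of freedom of 128 against 2.69. In pooled tissue, fewer cells of a type and less RNA per cell cannot be told apart.

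Before any comparison, the members differed widely in level. Per kilobase of exon, the highest in control ESCs was Eif5a, whose protein carries the modified amino acid hypusine and helps the ribosome past difficult stretches, with 16386 ± 150 normalised reads per kb (SD, n = 2). The helicase gene Eif4a1 followed with 11288 ± 28.7, the eIF3 subunit gene Eif3c with 7208 ± 0.403 and the helicase cofactor gene Eif4b with 6723 ± 76.4. In control embryos Eif5a was also first, with 630 ± 102 normalised reads per kb (SD, n = 5), before Eif1 with 443 ± 67.1. Eif4e with 207 ± 52.7, Eif6 with 183 ± 54.0 and Eif4a3 with 151 ± 59.9 came next in the embryo and overlapped within their spread. The subunit genes of the single complex eIF3 ran in control ESCs from 24.5 per kb for Eif3j1 to 7208 for Eif3c. In control embryos they ran from 1.58 for Eif3d to 147 for Eif3h. Both low ends are uncertain, since 50.9% of the exonic windows of 50 bases of Eif3j1 and 37.2% of those of Eif3d occur in other genes. The limit also holds for high values in the embryo, with 20.3% for Eif3h and 19.2% for Eif1. Members together took 1.77% of all normalised reads in both ESC controls and 1.98% and 2.02% with overexpression. Their share was 0.929% to 1.28% in the embryo controls, control 5 being the lowest, and 0.823% to 0.973% with RNAi, so these ranges overlapped.

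With Zscan4 overexpression in ESCs the share of initiation factor genes that changed was not far above that of all genes, and more of them rose than fell. All 56 members were tested; 12 rose and 5 fell at an adjusted p under 0.05 (limma, Benjamini-Hochberg over all genes), 30.4% of the members beside 23.2% of the 20888 genes tested. The rises were 21.4% of the members, beside 11.7% of all genes, and the falls 8.93%, beside 11.4%. By role, 3 of 5 eIF2B genes, 6 of 12 genes of eIF4F and its helpers and 4 of 9 scanning and joining genes passed. Of the 14 eIF3 genes 1 passed, of the 5 eIF2 genes 1, and of the 4 eIF4E binder genes none. The 12 are called eIF4F genes below and include helpers and relatives outside the complex, such as Eif4b and Eif4a3. The median log2 fold change of the members was 0.30, and that of all genes −0.02. In 47 members the control and overexpression libraries did not overlap, which with 2 libraries a group also held for 68.8% of all genes; 30 of them lay higher, beside 34.2% of all genes, and 17 lower, beside 34.6%. The count depended on single libraries: without control 1 or without control 2 limma called 0 of the 56 members, with 5 and 6 of them at an unadjusted p under 0.05, whereas without overexpression library 1 or 2 it called 44 and 41. In these fits a group of 1 library is assumed to vary like the other group. In the 11 alternatives that kept all libraries, Eif1a, Eif2ak1, Eif2b5, Eif2s2, Eif3j2, Eif4a2, Eif4e1b, Eif5a2 and Eif6 always passed, whereas Eif4g3 missed the threshold in 5, Eif1b in 4, Eif2b2 and Eif4b in 3, Eif1ad in 2, and Eif2b4, Eif4e2 and Eif4e3 in 1. Markers of the 2-cell stage summed to 81.9 and 108 normalised reads in control ESCs and 16235 and 16298 with overexpression. They include Zscan4c, Zscan4d and Zscan4f of the overexpressed family, which alone can raise this sum, so nothing is read from its rise. Outside that family Gm6763 and Usp17la rose, and Zfp352 and Tdpoz4 did not pass. Oocyte markers summed to 763 to 895 in controls and 893 to 1637 with overexpression, of which Bmp15 and Zp3 rose. The part of 2-cell-like or oocyte-like cells in the results was not tested. Positions are given on GRCm38 (mm10). Since the strand setting of the counting is not stated, values are uncertain where a gene lies on the other strand, which among the genes called in either comparison holds for Eif1ad, Eif1b, Eif2a, Eif2ak1, Eif2b4, Eif3m, Eif4a2 and Eif6, and Eif4e3 overlaps Gm20696 on its own strand.

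**Figure D1:**
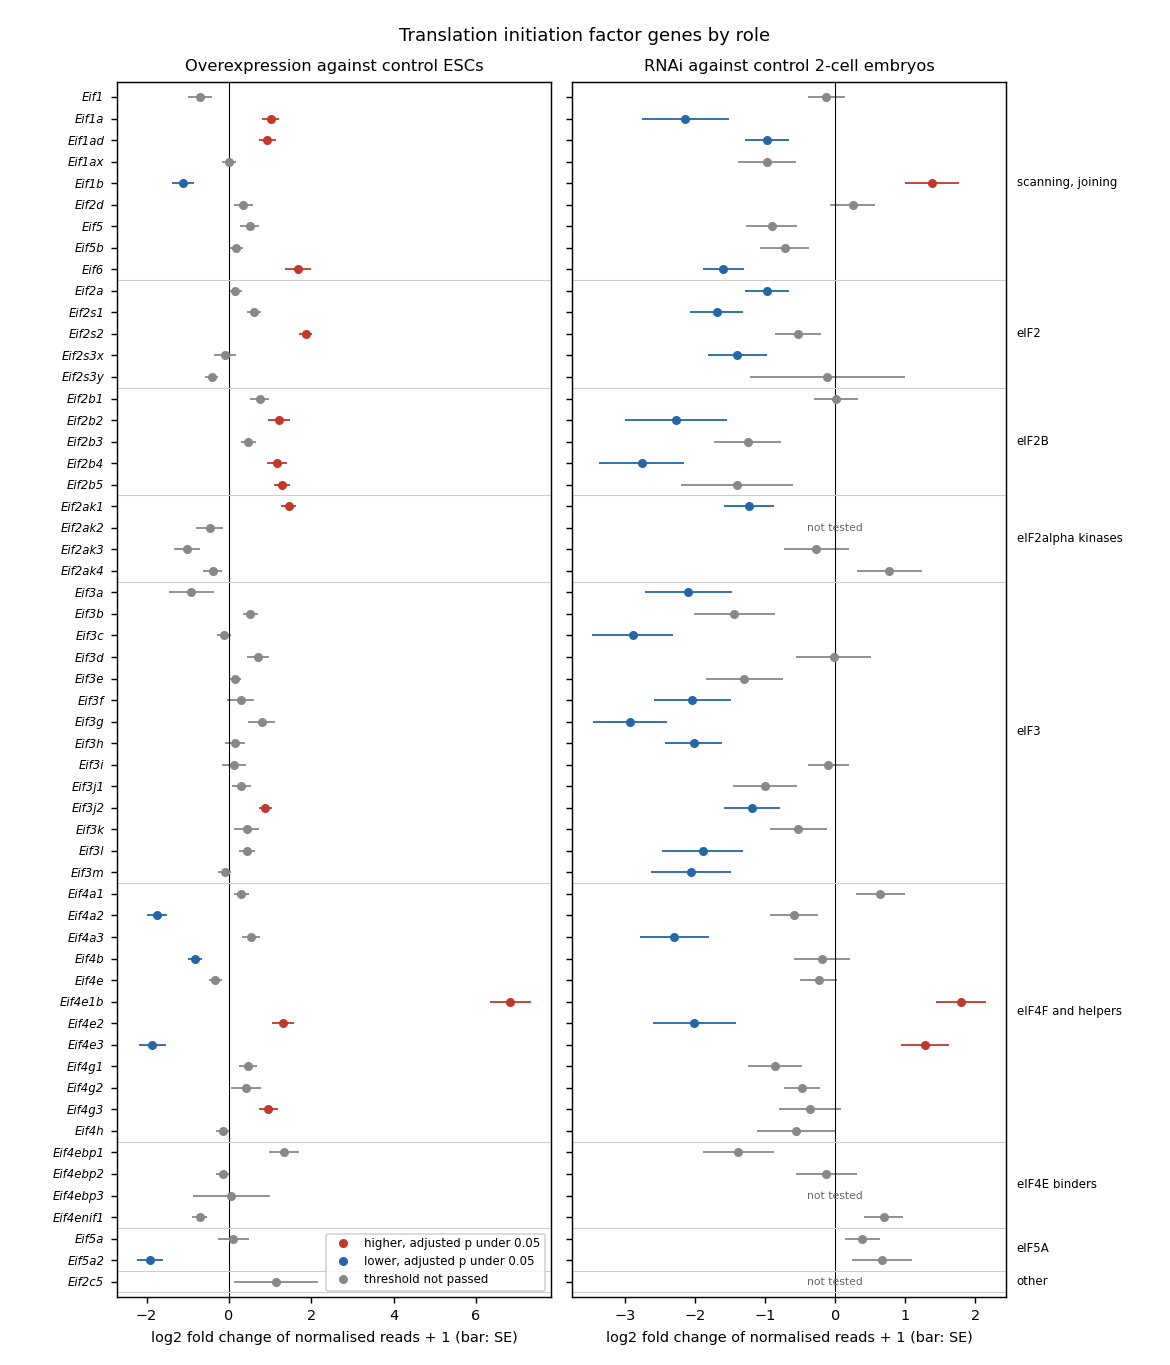
Log2 fold change (x axis, normalised reads + 1) of each initiation factor gene by role, for overexpression against control ESCs (left, 2 and 2 libraries) and RNAi against control embryos (right, 6 and 5 libraries), with bars for the standard error. Red and blue mark members that rose or fell at an adjusted p under 0.05; the 14 eIF3 genes all lie left of 0 in the embryo panel (13 of 14 after TMM scaling, after quantile normalisation and by DESeq2, 12 of 13 by edgeR), and Eif4e1b, which had no read in control ESCs, is the point farthest right in both panels.

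Among the factors of start codon choice and subunit joining, Eif6, whose product binds the large ribosomal subunit and keeps it from joining too early, had the largest log2 fold change (chr2:155819832-155826925). It had 1952 and 1927 normalised reads in the control ESCs and 4619 and 8276 with overexpression, 3.32-fold (log2 fold change 1.67, SE 0.32, adjusted p = 0.0325 by limma). Both overexpression libraries lay above both controls. In normalised reads, though not on the log2 scale, the overexpression libraries differed from each other by more than the lower one differed from the controls. Eif1a, a gene for the small factor eIF1A that opens the ribosome for scanning, went from 2187 and 2367 to 5297 and 4000 normalised reads, 2.04-fold (log2 1.02, adjusted p = 0.0358). Its X-linked paralog Eif1ax read 3915 and 4069 in controls and 3725 and 4317 with overexpression, with overlapping groups (adjusted p = 0.981), so that Eif1a made up 41.9% ± 0.703 of the pair per kb in controls and 59.1% ± 7.29 (SD, n = 2) with overexpression. Eif1ad, a gene for a protein with an eIF1A-like domain, rose from 1083 and 1161 to 1861 and 2471 normalised reads (log2 0.93, adjusted p = 0.0430); it overlaps Banf1 on the other strand. Eif1b, a paralog of the start codon factor eIF1, was the one gene of this group that fell, from 770 and 723 to 282 and 418 normalised reads, 2.13-fold (log2 −1.12, adjusted p = 0.0468). In all, 3 of the 9 genes of this group rose and 1 fell.

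Of the 5 genes listed as eIF2, 1 rose and none fell. Eif2a is counted with them, though it codes for a separate tRNA-binding factor and not for a subunit. The gene that rose was Eif2s2, the beta subunit gene (chr2:154871410-154892935). Its 8159 and 8059 normalised reads in control cells compare with 29198 and 29790 after overexpression, 3.64-fold higher (log2 1.86, SE 0.16, adjusted p = 0.0120), with replicates within a narrow band in each group. The genes of the other subunits did not pass the threshold. The alpha subunit gene Eif2s1, which carries the regulated serine, had a log2 difference of 0.60 (adjusted p = 0.0636). The gamma subunit has an X-linked and a Y-linked gene: Eif2s3x read 9873 and 10118 in controls and 11740 and 7445 with overexpression, and Eif2s3y 1854 and 1926 against 1452 and 1370 (adjusted p = 0.818 and 0.117).

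Of the 5 subunit genes of the exchange factor eIF2B 3 rose, none fell, and all 5 differences were above 0 under each alternative that was run. Eif2b5, the catalytic epsilon subunit gene, went from 3134 and 3031 to 6517 and 8685 normalised reads, 2.47-fold (log2 1.29, SE 0.20, adjusted p = 0.0240). Eif2b4 (delta) went from 1224 and 1204 to 2253 and 3299, 2.29-fold (log2 1.17, adjusted p = 0.0367). Eif2b2 (beta) went from 812 and 804 to 1484 and 2347, 2.37-fold (log2 1.21, adjusted p = 0.0439). Each overexpression library was above each control in all 3 genes, and overexpression library 2 was the higher of the pair. Eif2b1 (alpha) and Eif2b3 (gamma) had log2 differences of 0.75 and 0.47 that missed the threshold (adjusted p = 0.0869 and 0.132). After quantile normalisation 1 of the 5 genes passed the threshold, and without control 1 or control 2 none did.

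Of the 4 kinases that phosphorylate eIF2alpha, the heme-regulated kinase gene Eif2ak1 rose from 808 and 715 to 1876 and 2291 normalised reads, 2.74-fold (log2 1.45, SE 0.19, adjusted p = 0.0186). The other 3 all had means below the controls without passing the threshold. The closest was Eif2ak3, the kinase of endoplasmic reticulum stress, at a log2 difference of −1.02 (adjusted p = 0.0808).

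Of the 14 eIF3 genes, 1 rose and none fell. Eif3j2 went from 2898 and 2726 to 5156 and 5235 normalised reads (1.85-fold, log2 0.89, adjusted p = 0.0267). It is a copy of Eif3j1, and 90.8% of its exonic windows of 50 bases occur in Eif3j1, which read 140 and 146 in controls and 165 and 188 with overexpression. As reads of the pair may be split in ways the counting does not state, the sum is the safer value: 2955 ± 117.5 normalised reads in controls and 5372 ± 72.2 (SD, n = 2) with overexpression. The median log2 fold change of the 14 genes was 0.29, and 11 were above 0.

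The eIF4F genes moved in both directions, with 3 of 12 higher and 3 lower. Of the helicase paralogs, Eif4a2 (chr16:23107444-23114136) fell from 29020 and 28598 to 10391 and 7155 normalised reads, 3.28-fold (log2 −1.74, SE 0.24, adjusted p = 0.0196). Eif4a1 read 49012 and 48836 in controls and 59959 and 60363 with overexpression (log2 0.30, adjusted p = 0.289). Eif4a2 thus made up 32.3% ± 0.171 of the pair per kb in controls and 10.6% ± 2.51 (SD, n = 2) with overexpression. Genes of chromosome 11 had a median log2 fold change of −0.49 in these libraries. Eif4a1 lies there with Eif1, Eif4a3, Eif4enif1 and Eif5a, and none of these 5 members passed without centring on chromosomes. With that centring, 4 of the 12 eIF4F genes were called higher and 3 lower. Several small nucleolar RNA genes lie within Eif4a2, and 28.4% of the windows of Eif4a1 occur in other genes, mostly pseudogenes. Eif4b, the gene of the cofactor that stimulates the helicase, fell from 30280 and 29797 to 17942 and 15895 (1.77-fold, log2 −0.83, adjusted p = 0.0386). The scaffold gene Eif4g3 rose from 1345 and 1340 to 3123 and 2182 (1.98-fold, log2 0.96, adjusted p = 0.04996, just inside the threshold).

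The 4 cap-binding genes behaved differently from each other. Eif4e1b, a form of eIF4E known from oocytes and early embryos (chr13:54783998-54788459), had no read in either control ESC library and 83.0 and 155 normalised reads with overexpression. Against a floor of 3 reads over the control group it was at least 84.0-fold higher (adjusted p = 0.0116; its fitted log2 fold change depends on the pseudocount). Eif4e2, the gene of the repressive cap-binding protein 4EHP, rose from 3313 and 3145 to 6437 and 10061 normalised reads, 2.56-fold (log2 1.32, adjusted p = 0.0356). Eif4e3 fell from 90.5 and 93.6 to 28.3 and 21.5, 3.70-fold (log2 −1.86, adjusted p = 0.0281). The canonical Eif4e read 5696 and 5679 in controls and 4748 and 4286 with overexpression, a log2 difference of −0.33 (adjusted p = 0.185).

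None of the 4 eIF4E binder genes passed (limma, 2 at an unadjusted p under 0.05). Eif4ebp1 had the largest difference: 5666 and 5434 normalised reads in controls and 9892 and 19732 with overexpression, a log2 difference of 1.33 with an SE of 0.37 (adjusted p = 0.0679). Eif4ebp2 read 7310 and 7430 against 6988 and 6290 (adjusted p = 0.515). Of the eIF5A genes, Eif5a2 fell from 799 and 774 to 273 and 157, 3.66-fold (log2 −1.92, SE 0.32, adjusted p = 0.0261). The far more abundant Eif5a read 39201 and 38696 in controls and 29906 and 58723 with overexpression, with controls between the overexpression libraries (adjusted p = 0.858). Eif2c5, an lncRNA gene that bears an Eif name, had 0 to 5.62 normalised reads. The 30 members outside the named pairs that did not pass had log2 differences from −1.02 (Eif2ak3) to 1.14 (Eif2c5) and adjusted p from 0.0573 to 0.970. Among them the scanning and joining genes Eif1, Eif2d, Eif5 and Eif5b, with control means of 3477 to 12568 normalised reads, ran from −0.71 (Eif1) to 0.50 (Eif5). Eif4a3, Eif4g1, Eif4g2 and Eif4h, with control means of 5825 to 19073, ran from −0.14 (Eif4h) to 0.53 (Eif4a3).

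**Figure D2:**
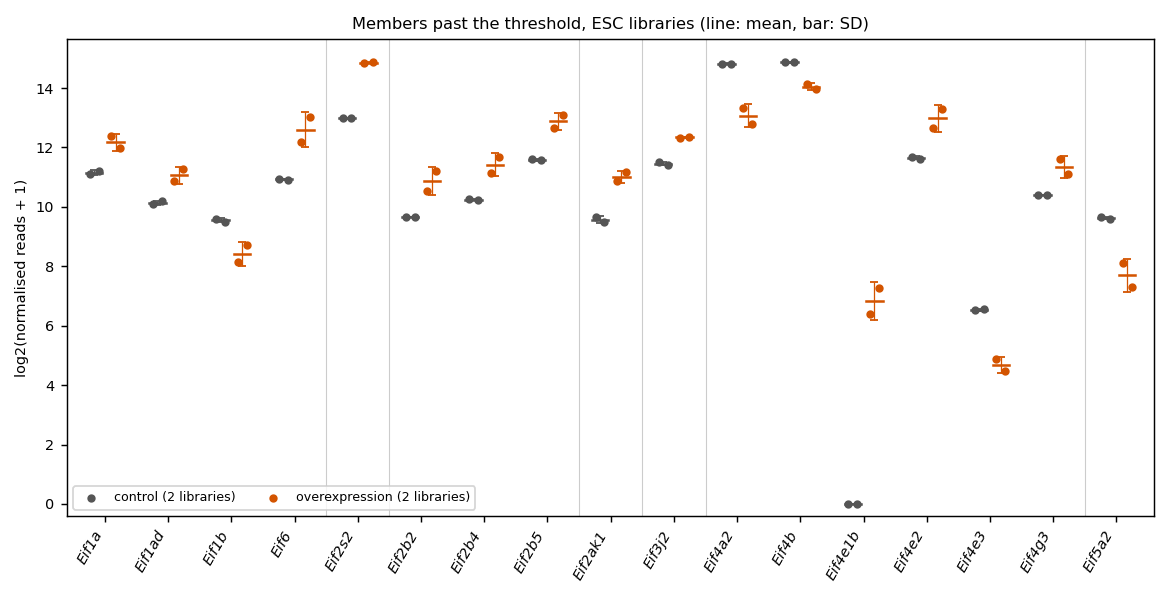
Log2(normalised reads + 1) (y axis) of the 17 members past the threshold in ESCs, grouped by role along the x axis, with a point per library, a line for the mean and a bar for the SD (2 control and 2 overexpression libraries). The overexpression points lie farther apart than the control points in 16 of the 17 genes, the exception being Eif3j2; Eif4e1b is at 0 in both controls.

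In 2-cell embryos the same genes mostly lay lower with Zscan4 RNAi. Of the 53 members that passed the filter on low values (Eif2ak2, Eif2c5 and Eif4ebp3 did not, with at most 2.61 normalised reads in any library), 19 fell and 3 rose at an adjusted p under 0.05 (limma, Benjamini-Hochberg over all genes), 41.5% of the members beside 18.2% of the 16417 genes tested. The falls were 35.8% of the members, beside 12% of all genes, and the rises 5.66%, beside 6.13%. The median log2 fold change of the members was −0.90, and that of all genes −0.03; 43 of the 53 were below 0. In 8 members the groups did not overlap, beside 7.33% of all genes: 6 lay lower (4.28% of all genes did) and 2 higher (3.05%). The oocyte marker sum was higher in each RNAi library than in each control, and its part in these falls and rises was not tested. Leaving out control 1, 2 or 4 left 14, 13 and 11 calls; leaving out control 5 gave 24, with 20 lower and 4 higher. Control 5 had the lowest value of the 5 controls in 17 of the 19 genes that fell.

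In eIF3, 8 of the 14 genes fell, none rose, and the median log2 fold change was −1.66. All 14 differences were below 0, as were 13 of 14 after TMM scaling, after quantile normalisation and by DESeq2, and 12 of 13 by edgeR. Eif3g, the gene of an RNA-binding subunit (chr9:20894349-20898623), had 62.9, 141, 62.6, 92.5 and 20.5 normalised reads in the controls, while the RNAi libraries ran from 2.61 to 16.4 with a median of 7.39. The groups did not overlap, and the means differed 8.59-fold (log2 −2.92, SE 0.53, adjusted p = 0.00270). Eif3c, a core subunit gene (chr7:126546455-126566411), had 80.5, 87.0, 96.0, 132 and 38.1 in controls and 1.30 to 36.1 with RNAi (median 11.9), again without overlap and 5.97-fold lower (log2 −2.89, SE 0.58, adjusted p = 0.00410). Eif3h, another subunit gene and the highest eIF3 gene per kb in control embryos, had 215, 299, 333, 255 and 84.1 in controls and 24.8 to 93.5 with RNAi (median 59). Only control 5 reached into the RNAi range, and the means differed 4.05-fold (log2 −2.02, SE 0.41, adjusted p = 0.00419). Of the windows of Eif3h, 20.3% occur in other genes.

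Eif3a, the gene of the largest subunit, had 112, 97.4, 50.1, 77.3 and 37.1 normalised reads in controls and 0.868 to 48.4 with RNAi (median 21.9; log2 −2.10, adjusted p = 0.0245). Eif3m had 31.9, 98.8, 40.4, 50.3 and 7.82 in controls and 2.60 to 11.7 with RNAi (median 9.52; log2 −2.06, adjusted p = 0.0187). In both genes control 5 was the one control within the RNAi range. Of the windows of Eif3m, 18.4% occur in other genes. Eif3f had 22.6, 48.7, 41.8, 137 and 23.5 in controls and 2.61 to 23.8 with RNAi (median 10; log2 −2.04, adjusted p = 0.0157). Eif3l had 49.5, 58.3, 43.1, 41.0 and 29.3 in controls and 2.61 to 41.5 with RNAi (median 9.99; log2 −1.89, adjusted p = 0.0289). Their ranges overlapped, and the high Eif3f value was that of control 4. Eif3j2 had 80.5, 82.6, 182, 135 and 43.0 in controls and 21.7 to 76.2 with RNAi (median 40.5; log2 −1.19, adjusted p = 0.0442), and its twin Eif3j1 had 51.1, 81.2, 159, 59.7 and 43.0 against 15.1 to 91.0 (median 32.8; adjusted p = 0.127). The sum of both was 183 ± 96.8 (SD, n = 5) in controls and 84.8 ± 45.4 (SD, n = 6) with RNAi.

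The remaining eIF3 genes did not pass. Eif3b and Eif3e had log2 differences of −1.44 and −1.30 (adjusted p = 0.0852 and 0.103), and Eif3k one of −0.53. Eif3i, whose controls ran from 166 to 316 normalised reads, and Eif3d, which had 5.85 to 9.74 in controls, differed by −0.10 and −0.02 on the log2 scale. Averaged over the 14 genes, the log2 level was 4.94 to 6.22 in the controls and 3.54 to 5.21 with RNAi; control 5 was at the low end of the controls, below the highest RNAi library. The count of eIF3 genes that fell was 8 without control 5 and 5, 4 and 3 without control 1, 2 and 4.

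All 5 eIF2 genes had means below the controls, though the sign of Eif2s3y turned after quantile normalisation, and 3 of the 5 fell. Eif2s1, the alpha subunit gene, had 197, 291, 366, 292 and 93.8 normalised reads in controls and 42.5 to 107 with RNAi (median 74.8), 3.33-fold lower (log2 −1.69, SE 0.38, adjusted p = 0.00619). Control 5 was the one control that lay within the RNAi range. Eif2s3x, the X-linked gamma subunit gene, had 63.7, 87.0, 47.3, 50.3 and 45.9 in controls and 10.4 to 44.2 with RNAi (median 23.3), without overlap (log2 −1.40, adjusted p = 0.0275); 34.6% of its windows occur in other genes, mostly a pseudogene. The Y-linked Eif2s3y was listed at 0 in controls 1, 2 and 5, at 62.6 and 31.6 in controls 3 and 4, and at 0 to 19.9 with RNAi. Eif2a, which codes for a separate tRNA-binding factor and not for an eIF2 subunit, had 92.2, 121, 127, 102 and 64.5 in controls and 35.0 to 76.6 with RNAi (median 48.7; log2 −0.97, adjusted p = 0.0389). Eif2s2, the gene that rose in ESCs, had 627, 597, 783, 480 and 226 in control embryos and 215 to 606 with RNAi, which missed the threshold (log2 −0.53, adjusted p = 0.271).

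Of the eIF2B genes, 2 of 5 fell. Eif2b4 (delta) had 163, 227, 202, 246 and 91.9 normalised reads in controls and 7.82 to 137 with RNAi (median 29.1), 4.22-fold lower (log2 −2.76, SE 0.60, adjusted p = 0.00556). RNAi library 2 gave the 137 and was alone among the RNAi libraries in reaching the control range. Eif2b2 (beta) had 30.2, 35.4, 36.2, 52.7 and 16.6 in controls and 0 to 31.3 with RNAi (median 8.10; log2 −2.27, adjusted p = 0.0353), close to the limit of single reads. Eif2b1 (alpha), at 220 to 417 in controls and 191 to 539 with RNAi, had a log2 difference of 0.01. The kinase gene Eif2ak1 had 128, 127, 121, 187 and 142 in controls and 22.2 to 95.1 with RNAi (median 67.7), without overlap and 2.20-fold lower (log2 −1.23, adjusted p = 0.0213).

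Of the 9 scanning and joining genes 3 fell and 1 rose, and Eif6 had the smallest p of them. It had 444, 646, 493, 612 and 281 normalised reads in controls and 104 to 224 with RNAi (median 171), so that even control 5 lay above all RNAi libraries (3.05-fold lower, log2 −1.60, SE 0.30, adjusted p = 0.00314). Eif1a had 226, 107, 280, 145 and 55.7 in controls and 3.48 to 87.7 with RNAi (median 41.9; 3.49-fold lower, log2 −2.14, adjusted p = 0.0226). Eif1ax had 191, 149, 217, 39.8 and 59.6 against 35.2 to 73.9 (median 60.5; log2 −0.97, adjusted p = 0.110), with control 4 and control 5 inside the RNAi range. Eif1ad fell in a narrow band, from 104, 99.6, 87.7, 109 and 85 to 32.1 to 69.7 (median 51.8), without overlap (log2 −0.98, adjusted p = 0.0355). Eif1b went the other way: 48.6, 64.2, 58.5, 53.9 and 71.4 in controls and 82.4 to 414 with RNAi (median 140), without overlap and 3.15-fold higher (log2 1.38, SE 0.39, adjusted p = 0.0204). Its share of the pair Eif1 and Eif1b per kb was 10.8% ± 2.74 (SD, n = 5) in controls and 27.7% ± 16.2 (SD, n = 6) with RNAi.

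Listed with the eIF4F genes, Eif4a3 is the gene of the helicase in the exon junction complex that marks spliced mRNA. It had 252, 432, 330, 446 and 143 normalised reads in controls and 15.7 to 185 with RNAi (median 60), 3.99-fold lower (log2 −2.30, SE 0.49, adjusted p = 0.00528). Genes of chromosome 11, where it lies, had a median log2 fold change of −0.31 in embryos, and no centring on chromosomes was run there. Of the windows of Eif4a3, 16.5% occur in other genes. Its relatives, the eIF4F helicase genes, did not pass: Eif4a1 had 386, 374, 209, 258 and 286 in controls and 248 to 1175 with RNAi (adjusted p = 0.209), and Eif4a2 had 193, 237, 116, 102 and 72.3 against 59.9 to 137 (adjusted p = 0.243). Eif4e2 had 61.2, 120, 104, 131 and 17.6 in controls and 2.60 to 36.0 with RNAi (median 25.7; 4-fold lower, log2 −2.01, adjusted p = 0.0248). With the exception of control 5, its controls lay above all RNAi libraries.

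The oocyte-type cap-binding gene rose. Eif4e1b had 62.1, 45.7, 33.4, 35.1 and 90.9 normalised reads in controls and 112 to 356 with RNAi (median 157), without overlap and 3.58-fold higher (log2 1.80, SE 0.36, adjusted p = 0.00419). Eif4e3 had 102, 79.7, 122, 157 and 125 in controls and 131 to 604 with RNAi (median 274; 2.67-fold higher, log2 1.29, adjusted p = 0.0150), where control 4 lay within the RNAi range. Control 5, the control with the highest oocyte marker sum, also had the highest Eif4e1b value of its group. Eif4e had 1376, 1553, 1315, 1248 and 712 in controls and 837 to 1291 with RNAi (median 976; adjusted p = 0.558). None of the 3 binder genes tested passed, with 2 at an unadjusted p under 0.05: Eif4ebp1 had 58.7, 30.2, 107, 82.0 and 43.0 against 10.4 to 64.9 (log2 −1.38, adjusted p = 0.0604), and Eif4ebp2 17.6, 14, 23.7, 9.37 and 16.6 against 10.4 to 19.7 (adjusted p = 0.867). Both eIF5A genes had means above the controls (below for Eif5a after quantile normalisation) and did not pass, with Eif5a at 1390, 1423, 1867, 1580 and 1226 against 1542 to 2717 (adjusted p = 0.283) and Eif5a2 at 9.22, 19.9, 15.3, 11.7 and 25.4 against 14.4 to 37.8 (adjusted p = 0.295). The 21 members outside the named pairs that were tested and did not pass had log2 differences from −1.44 (Eif3b) to 0.77 (Eif2ak4) and adjusted p from 0.0744 to 0.992. Of these Eif1, Eif2d, Eif5 and Eif5b, with control means of 63.4 to 965 normalised reads, ran from −0.90 (Eif5) to 0.25 (Eif2d). Eif4b, Eif4g1, Eif4g2, Eif4g3 and Eif4h, with control means of 23.9 to 626, ran from −0.86 (Eif4g1) to −0.19 (Eif4b).

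**Figure D3:**
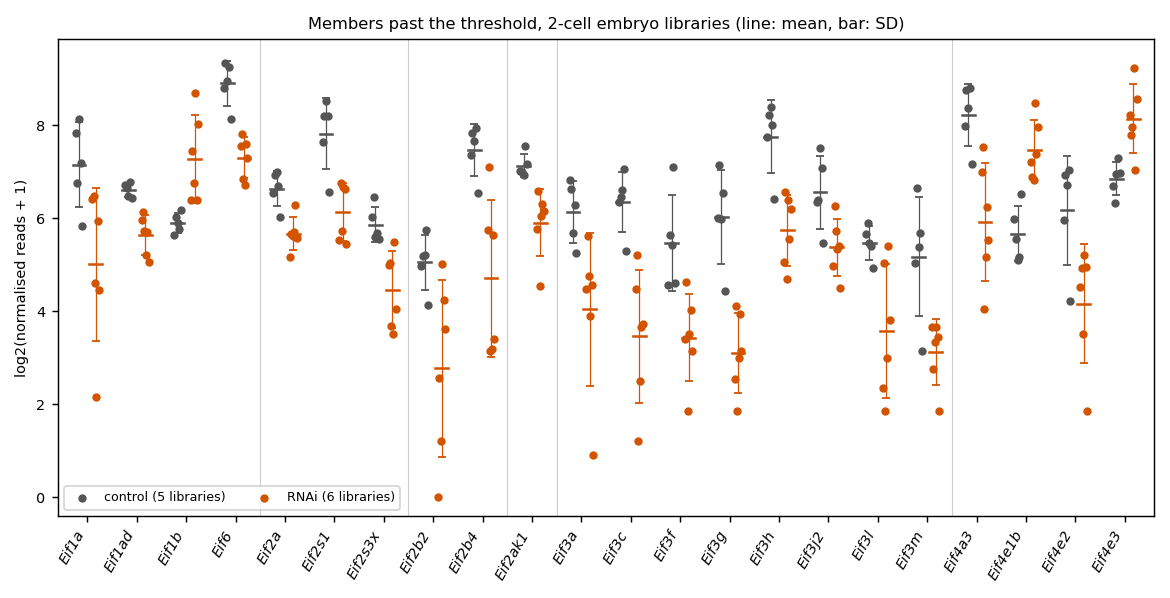
Log2(normalised reads + 1) (y axis) of the 22 members past the threshold in 2-cell embryos, grouped by role along the x axis, with a point per library, a line for the mean and a bar for the SD (5 control and 6 RNAi libraries). In 17 of the 19 genes that fell the lowest control point is that of control 5; Eif1b, Eif4e1b and Eif4e3 are the genes whose RNAi points lie higher.

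The embryo calls were of unequal firmness. Those of Eif2b4, Eif2s1, Eif3c, Eif3g, Eif3h, Eif4a3, Eif4e1b, Eif4e3 and Eif6 passed under all 20 alternatives, with a highest adjusted p of 0.049 for Eif4e3 and of 0.0295 for Eif2b4. Eif2ak1 and Eif3f missed the threshold only without control 4 (adjusted p = 0.0638 and 0.0645), Eif1b only without RNAi library 6 (0.05), and Eif3m without control 2 or 4 (at most 0.0722). Eif1a, Eif3a and Eif4e2 missed it in 3, 3 and 5 of the 20, all of them fits with a library left out (at most 0.0685, 0.0653 and 0.0762). Eif2s3x missed it in 7 (at most 0.0833), Eif1ad, Eif2a, Eif2b2 and Eif3l in 10 each (at most 0.0981, 0.110, 0.123 and 0.101) and Eif3j2 in 13 (at most 0.136). All 22 kept their direction throughout.

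Set side by side, the ESC and embryo comparisons, which share no library, moved 10 of the 11 members that passed in both in opposite directions, or 90.9%, beside 71.4% of the 611 genes that passed in both. Of the 53 members tested in both, 8 rose with overexpression and fell with RNAi (Eif1a, Eif1ad, Eif2ak1, Eif2b2, Eif2b4, Eif3j2, Eif4e2 and Eif6), 2 fell with overexpression and rose with RNAi (Eif1b and Eif4e3), and Eif4e1b rose in both. None fell in both. The signs were opposite in 36 of the 53, or 67.9%, beside 53.6% of the 13089 genes tested in both. Across these members Pearson's r of the log2 fold changes was −0.08 and Spearman's rho −0.40, beside −0.13 and −0.12 over all genes; genes are not independent replicates, and Eif4e1b alone lies far from the rest. A further 11 members fell in embryos without passing in ESCs, among them the eIF3 genes Eif3a, Eif3c, Eif3f, Eif3g, Eif3h, Eif3l and Eif3m. In the other direction Eif2b5, Eif2s2 and Eif4g3 rose and Eif4a2, Eif4b and Eif5a2 fell in ESCs without passing in embryos.

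**Figure D4:**
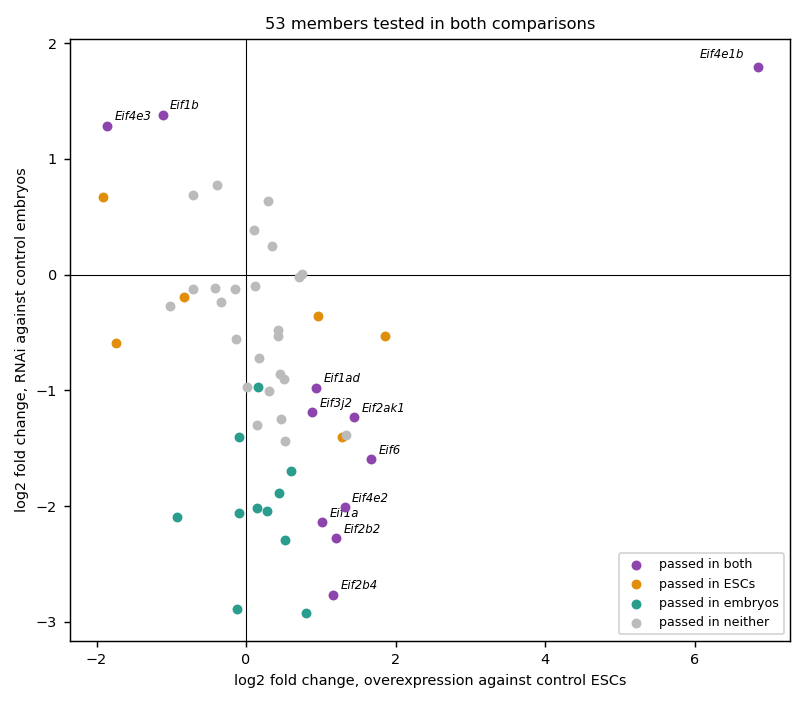
Log2 fold change with overexpression in ESCs (x axis) against log2 fold change with RNAi in 2-cell embryos (y axis), a point for each of the 53 members tested in both. Named points passed in both comparisons; 8 lie at the lower right, Eif1b and Eif4e3 at the upper left, and Eif4e1b alone at the upper right.

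The makeup of the cap-binding family differed between the groups in both systems; the shares are a description without a test. Per kb of exon, Eif4e made up 67% ± 0.656 of the 4 cap-binding genes in control ESCs and 40% ± 9.28 (SD, n = 2) with overexpression, while Eif4e2 went from 30.5% ± 0.749 to 56.8% ± 8.72. Eif4e1b went from no read to 2.70% ± 0.746, and Eif4e3 from 2.59% ± 0.0934 to 0.531% ± 0.185. In the embryo Eif4e made up 70.5% ± 8.89 (SD, n = 5) in controls and 46.6% ± 7.73 (SD, n = 6) with RNAi, where Eif4e1b went from 8.90% ± 5.94 to 21.6% ± 4.86 and Eif4e3 from 16.7% ± 5.55 to 31.0% ± 6.81. Eif4e2 went the other way than in ESCs, from 3.83% ± 1.90 to 0.814% ± 0.526. The RNAi libraries all had less Eif4e in the family (34.8% to 53.5%) than the controls (56.2% to 79.2%), with control 5 the nearest to them. Its Eif4e1b share, 19.1%, was inside the RNAi range of 16.2% to 26.4%.

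**Figure D5:**
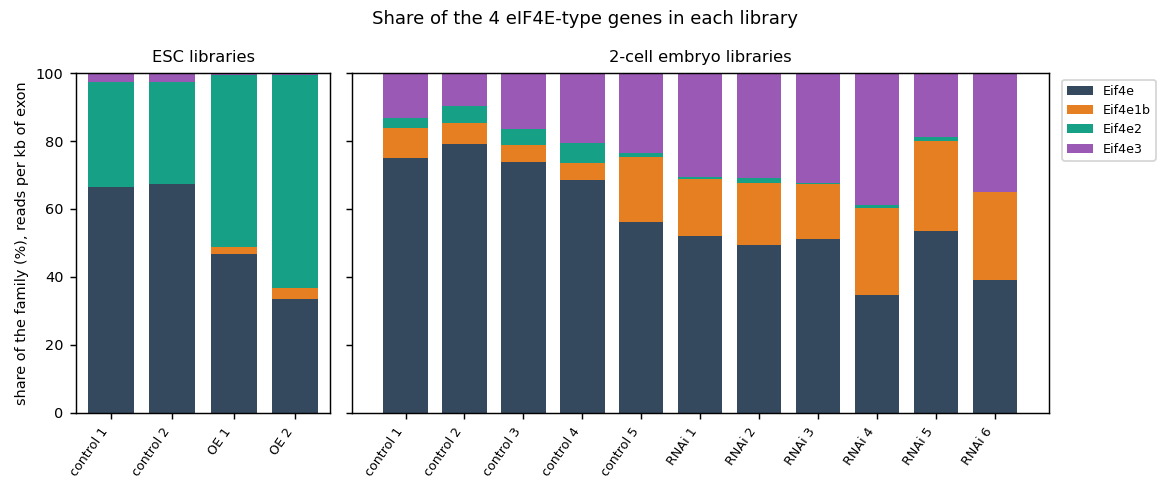
Share of Eif4e, Eif4e1b, Eif4e2 and Eif4e3 among the family (y axis, percent of normalised reads per kb of exon) in each library (x axis, ESC libraries left, embryo libraries right). Eif4e2 takes over 50% in both overexpression libraries, and in the embryo the Eif4e1b segment is wider in all 6 RNAi libraries and in control 5 than in controls 1 to 4.

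Beside the members stand copies that carry other symbols in the tables. Gm8994 and Gm5580, known in RefSeq as Eif4a3l1 and Eif4a3l2, are intact copies of Eif4a3 on chromosome 6, annotated as protein-coding (GRCm38; Gm8994 at chr6:136327539-136329983, Gm5580 at chr6:116551141-116552502, Eif4a3 at chr11:119288363-119300089 on the minus strand). Their longest reading frames have 1236 bases like that of Eif4a3 and share 96.2% and 96.8% of the bases with it, with 119 and 151 bases in the longest stretch without a difference. The first 60 bases of each reading frame are shown so that parent and copies can be compared; capitals mark the bases that differ from Eif4a3, 6 in Gm8994 and 7 in Gm5580.
Eif4a3: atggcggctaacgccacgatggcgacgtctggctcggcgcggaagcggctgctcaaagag
Gm8994: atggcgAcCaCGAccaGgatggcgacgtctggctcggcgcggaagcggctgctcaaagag
Gm5580: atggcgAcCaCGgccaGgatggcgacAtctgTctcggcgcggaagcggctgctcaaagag
In ESCs Gm8994 went from 9.52 and 15.9 to 479 and 603 normalised reads, 42.5-fold (log2 5.33, SE 0.37, adjusted p = 0.0116 by limma), and Gm5580 from 7.62 and 5.62 to 194 and 328, 39.4-fold (log2 5.07, SE 0.42, adjusted p = 0.0118). The parent gene Eif4a3 read 5791 and 5859 against 7128 and 9870 (log2 0.53, adjusted p = 0.149). In embryos, where Eif4a3 fell 3.99-fold, Gm8994 had 120 to 276 in controls and 27.9 to 142 with RNAi (log2 −1.29, adjusted p = 0.0328). Gm5580 had 92.9 to 262 in controls and 20.9 to 144 with RNAi (log2 −0.97, adjusted p = 0.123). Both ESC calls were lost without control 1 or control 2 (adjusted p at most 0.252) and kept in the 11 alternatives with all libraries, and the embryo call of Gm8994 was lost in 9 of 20 alternatives (at most 0.0940).

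Eif1a likewise has relatives on chromosome 12. A set of 20 genes between positions 87494721 and 88329682 (GRCm38) was chosen after their values were seen because they share exonic windows of 50 bases with Eif1a, 0.664% to 14% of their own windows. Their single values are uncertain, since reads of such a gene family may be split among copies. In ESCs 14 were listed and 11 tested, of which 10 rose and none fell, beside 11.7% of all genes that rose. In embryos all 20 were tested, of which 16 fell and none rose, beside 12% of all genes that fell; as the set was chosen with these values seen, nothing is read from these counts. Shown as the extreme of the set, Gm5662 had the smallest p of the 20 in embryos. It read 16.2 and 18.7 normalised reads in control ESCs and 614 and 343 with overexpression (27.4-fold, log2 4.64, adjusted p = 0.0119). In embryos it had 342 to 671 in controls and 35.6 to 393 with RNAi (3.21-fold lower, log2 −2.28, adjusted p = 0.00707). RNAi libraries 1 and 2, at 393 and 348.5, lay within the control range, and the others had 35.6 to 103. Gm5039, Gm10264, Gm16368 and Gm21319 did not pass in embryos. Only 2.62% of the windows of Eif1a itself are shared with other genes.

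The wider translation machinery was followed in a list of 45 genes that the naming rule does not match. In ESCs 43 were tested, of which 5 rose and 1 fell, beside 23.2% of all genes. Those that rose were Mcts2 (3.13-fold), Rps6kb2 (2.55-fold), Eef2k, the kinase of elongation factor 2 (2.28-fold), Pelo (2.17-fold) and the release factor gene Etf1 (2.02-fold). The gene that fell was Pdcd4, a repressor of the eIF4A helicase (log2 −1.53, adjusted p = 0.0187). In embryos all 45 were tested, of which 13 fell and none rose, beside 18.2% of all genes. These were the release factor gene Gspt1, the poly(A)-binding protein gene Pabpc1, Denr, Mcts2, Bzw1, Bzw2, Larp1, Ncbp1 and Abcf1, both phosphatase partners of eIF2alpha, Ppp1r15a and Ppp1r15b, and both enzymes that make hypusine on eIF5A, Dhps and Dohh. Pabpc1 had 120.6 normalised reads on average in controls and 27.5 with RNAi (log2 −2.65, adjusted p = 0.00519), and Denr, which acts in reinitiation, 180 and 41.9 (log2 −2.18, adjusted p = 0.00431). Bzw1, which codes for a protein that competes with eIF5, had 774 and 243 (log2 −1.78, adjusted p = 0.00663).

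Many mRNAs of the translation machinery begin with a C and a run of pyrimidines, the 5′ terminal oligopyrimidine or TOP start that mTOR and Larp1 act on. Promoters of 300 bases, 250 before and 50 after the RefSeq start, were found for 44 of the 56 members (RefSeq, GRCm38.p6). A C at the start followed by at least 4 pyrimidines stood at 3 of them (Eif2c5, Eif2s3x and Eif3f), 6.82% beside 3.01% of all 27025 genes with a promoter. Eif2c5 is the lncRNA gene that only bears an Eif name. Such a start stood at 2 of the 15 promoters of members that fell with RNAi. The RefSeq start of Eif2s3x lies inside the GENCODE gene, which reaches to chrX:94212862, and is thus not the outermost annotated start. Both promoters are shown from 60 bases before the start to 15 bases from it, 5′ to 3′ on the strand of the gene, with the run of pyrimidines, 11 bases in each, in capitals (Eif3f at chr7:108934355-108934429 on the plus strand, Eif2s3x at chrX:94212637-94212711 on the minus strand).
Eif3f: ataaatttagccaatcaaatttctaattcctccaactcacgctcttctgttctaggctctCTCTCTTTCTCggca
Eif2s3x: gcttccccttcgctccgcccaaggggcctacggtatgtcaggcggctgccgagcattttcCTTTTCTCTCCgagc
On either strand, the E-box CACGTG stood in 10 member promoters (22.7%, beside 8.09% of all), among them Eif1b, Eif4e, Eif4a1 and Eif5a. It stood in 2 of the 15 promoters of members that fell with RNAi (13.3%) and in 0 of the 8 found for members that rose with overexpression. The NRF1 consensus motif stood in 7 member promoters (15.9%, beside 5.19%), in 2 of those 15 and in 1 of those 8. The motif TGCACAC, known for Zscan4, stood in 2, Eif3l and Eif5a (4.55%, beside 5.02%), in 1 of the 15 (6.67%) and in 0 of the 8. These matches describe the letters of the windows only.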

How the data were processed

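Libraries titled RNA-Seq from mouse embryonic stem cells (ESCs) and 2-cell embryos were compared within 2 separately normalised tables. Trimming, alignment and counting used Trimmomatic, HISAT2 and featureCounts on mm10, per the submitters' processing notes; versions, annotation, strand setting and the handling of multiply matching reads were not given in the sources used here. Deposited values are a signal, counts of reads that the authors divided by a size factor for each library: 100% of the values were whole multiples, within 0.01 of 1 read, of a step per library, and the step gave back whole reads.

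All genes of a table that reached a value of 1 in 2 or more ESC or 5 or more embryo libraries were fitted with limma (version 3.58.1, trend) on log2(value + 1), without covariates, with Benjamini-Hochberg adjustment over all of them and a threshold of 0.05. This scale understates the change of low genes. edgeR (4.0.16) and DESeq2 (1.42.0) on the recovered reads, other scalings, pseudocounts, filters and left-out libraries were alternatives. The scripts were tested on simulated data. Depth was 21820093 to 26555027 reads in the ESC libraries and 695524 to 1432566 in those of embryos, and intervals or floors cover counting error only. A group without a read was given a floor of 3 reads.

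Members are all symbols that begin with Eif and a digit from 1 to 6, without processed pseudogenes named as such (-ps). Values are given for each member past the threshold in either comparison and for 7 paralog pairs (Eif1a and Eif1ax, Eif2s3x and Eif2s3y, Eif4a1 and Eif4a2, Eif4e and Eif4e1b, Eif5a and Eif5a2, Eif3j1 and Eif3j2, Eif4ebp1 and Eif4ebp2), and the others by range and count. The members and lists were chosen with earlier results of these data known. Positions are from GENCODE vM21 (GRCm38, the assembly of mm10) and promoters from RefSeq (GRCm38.p6, 44 of 56 members matched). Embryo control columns carry numbers that differ from the labels' numbers, so the numbers only name libraries. Reads of replicates differed beyond sampling noise in all pairs. Each library was treated as 1 replicate, though such a spread does not show that libraries came from separate cultures or embryo pools.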

Additional observations from a re-analysis of the deposited data

Results flagged for a closer look

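In groups of 4 to 10 libraries, 64 groups of values of described members were searched for a library far from the others, and 2 were found; chance gives about 1 in 20. Eif2b4 had 137 normalised reads in RNAi library 2, where the other RNAi libraries had 7.82 to 52.9. Eif3f had 137 in embryo control 4, where the other controls had 22.6 to 48.7, and its call was lost without that library (adjusted p = 0.0645 by limma). The ESC groups, of 2 libraries each, could not be searched.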

How the results depend on the processing

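In ESCs the 17 calls became 11 after quantile normalisation (7 higher, 4 lower) and ranged from 0 to 44 with 1 library left out; the other alternatives gave 12 to 20. The replicate block gave 18, of which 16 were among the 17. Deviations of same-numbered libraries from their group means had a correlation of −0.00719, so no pairing by number was seen. With 2 libraries a group both pairs give this same value. All 17 kept their direction in all alternatives. Eif1b, Eif2b2 and Eif4g3 did not pass after centring on chromosomes. Other members passed only then, so that this fit again called 12 higher and 5 lower. Among these were 4 eIF4F genes called higher and 1 eIF2 gene called lower. Signs reversed only in members that had not passed. Eif1ax, at 0.0066, read −0.0083 after TMM scaling, −0.087 after quantile normalisation, −0.34 after centring on chromosomes, and −0.10 to 0.11 with 1 library left out. With 1 library left out, Eif2s3x ranged from −0.42 to 0.23 and Eif5a from −0.38 to 0.59.

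In embryos the 22 calls became 18 to 27 with other tools, scalings, pseudocounts and filters, and 11 to 24 with 1 library left out. Quantile normalisation moved the median of all genes from −0.03 to 0.14 and DESeq2 to 0.11, with the members' median at −0.71 and −0.81. Signs again reversed only in members that had not passed. Eif2s3y read 0.077 after quantile normalisation, 0.32 with a pseudocount of 0.25, and −0.66 to 0.83 with 1 library left out. Eif4ebp2 read 0.10 after quantile normalisation, 0.025 with voom, and −0.30 to 0.015 with 1 library left out, and Eif5a −0.16 after quantile normalisation. No paired analysis was possible in embryos because the numbers of their control columns do not match the labels, so that no control could be tied to an RNAi number. The Zscan4 sums, whose alternative was chosen after seeing the data, kept their sign with each library left out, 6.54 to 7.01 in ESCs and −2.36 to −1.42 in embryos. Of the other translation genes named, all 6 ESC calls were lost without control 1 or control 2, and Rps6kb2 and Pelo also missed in 2 of the 11 alternatives with all libraries. In embryos Pabpc1, Denr, Bzw1, Ncbp1, Abcf1 and Ppp1r15a passed throughout, while Gspt1 missed in 12 of 20 and Larp1 in 12 of 17; these alternatives were added after seeing the data. The cause of these changes was not tested. Depth limits the low embryo values, where single reads decide.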
